A study of Mus musculus with 2 samples.

Results

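The Fc receptors and their common gamma chain were followed across the cell types of splenic CD11c+ preparations. Of the 27032 genes in each table, 7 were chosen by name, and 7 of 7 were present: Fcer1g, Fcgr1, Fcgr2b, Fcgr3, Fcgr4, Fcgrt and Fcer2a. The data were single-cell transcriptomes of 2 samples from spleens of wild-type mice, called replicates 1 and 2, both of 1 group with no treatment in the labels. According to the methods, the study's mice were adults of both sexes on the C57BL/6J background. The sources used here do not state the number of mice behind a sample. Cells were enriched on CD11c beads, marked with sample tags and captured in 1 run on the BD Rhapsody system, in which each captured transcript carries a unique molecular identifier (UMI). With 2 samples of 1 condition, the comparisons made here are between cell classes within the same samples, and p-values measure only the spread between these samples, which may be technical.

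Fc receptors bind the constant part of antibodies and so tie antibody-coated antigen to cells. FcγRI (Fcgr1), FcγRIII (Fcgr3) and FcγRIV (Fcgr4) are activating receptors for IgG, which assemble with the common gamma chain (Fcer1g), a short membrane protein whose cytoplasmic tail carries an activation motif (ITAM) that recruits the kinase Syk. FcγRIIB (Fcgr2b) is the inhibitory IgG receptor, whose own tail carries an inhibitory motif (ITIM) that recruits phosphatases. FcRn (Fcgrt) is a relative of MHC class I that pairs with β2-microglobulin and returns IgG from endosomes to the cell surface, and CD23 (Fcer2a) is the low-affinity receptor for IgE, a lectin best known on B cells. In the spleen, red pulp and marginal zone macrophages take up antibody-coated particles through these receptors.

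On GRCm38, with the GENCODE vM21 annotation, 4 of the 7 genes lie within 275749 bases of chromosome 1: Fcgr2b (chr1:170958617-170976547, minus strand), Fcgr4 (chr1:171018920-171029761, plus strand), Fcgr3 (chr1:171051174-171064935, minus strand) and Fcer1g (chr1:171229572-171234365, minus strand). Fcgr1 lies at chr3:96282909-96293969, Fcgrt at chr7:45092990-45103851 and Fcer2a at chr8:3681737-3694175, all on the minus strand. Antisense genes overlap Fcgr2b (Gm38204, 3175 bases) and Fcgrt (Gm45669, 5331 bases), and the sources used here do not state whether counting used the strand. The coding stretches of the activating and inhibitory motifs are shown because the comparisons below turn on these opposed tails. Capitals mark the tyrosine codons that a search for the motif's spacing found, codons 60 to 84 of 86 for Fcer1g (exons 4 and 5, chr1:171229874-171230087) and codons 312 to 327 of 340 for Fcgr2b (exons 7 and 8, chr1:170961056-170961198). The shorter ITIM pattern also matched once each in Fcer1g, Fcgr4 and Fcgrt and at 2 places in Fcgr1, and whether those places lie in a cytoplasmic tail was not examined. Both stretches are read 5′ to 3′ from the minus strand, across an intron.
Fcer1g ITAM: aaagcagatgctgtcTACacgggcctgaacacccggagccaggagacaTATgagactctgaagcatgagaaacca
Fcgr2b ITIM: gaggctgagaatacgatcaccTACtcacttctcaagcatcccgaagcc

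Fcgr2b and Fcgr3 are close relatives, so reads could be shared between them. Of the stretches of 50 bases in the principal Fcgr3 transcript, 12.8% (166 of 1298) also occurred in a Fcgr2b transcript, and of those in the principal Fcgr2b transcript 4.75% (166 of 3495) occurred in Fcgr3. In the last 500 bases before the 3′ end, 0 of 451 stretches were shared in either gene. No other pair among the 7 genes shared a stretch of this length. The longest shared run, 129 coding bases in exons 3 and 4 of both genes, is shown because reads confined to it cannot be assigned to an activating or an inhibitory receptor. It lies at chr1:171054167-171057792 in Fcgr3 and chr1:170966674-170968081 in Fcgr2b, split by an intron, on the minus strand.
shared run: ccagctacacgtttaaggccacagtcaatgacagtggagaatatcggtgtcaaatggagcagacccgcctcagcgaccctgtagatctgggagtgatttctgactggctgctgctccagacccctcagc

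The activating receptor genes were all highest in macrophages (values below), and the 120 bases before their starts are shown for that reason. RefSeq gives the starts on GRCm38.p6, and in Fcgr4 the stretch stops 6 bases earlier, where GENCODE begins the gene. The Fcgr3 stretch lies inside the GENCODE gene, which reaches chr1:171064935, and RefSeq gives Fcgr3 another start close by. The 250-base window of Fcgr2b counted below also lies inside its GENCODE gene. In these windows 27 bases of Fcgr3 and 131 of Fcgr2b fall in an annotated exon. Capitals mark GAGGAA, or TTCCTC on the other strand, the core of sites of the PU.1 family, and in Fcgr1 also TTCNNNGAA, the form of sites bound by STAT factors. In the 250 bases before the start, GAGGAA occurred on either strand in 3 of 7 genes (Fcgr1, Fcgr3 and Fcgr4, 1 match each) and in 23.3% of 32851 RefSeq promoter entries, which count a gene once per start. TTCNNNGAA occurred in Fcgr1 and in 7.02% of the entries. A match of these letters is a description of the window and not a site.
Fcgr1 promoter (chr3:96293970-96294089, minus strand): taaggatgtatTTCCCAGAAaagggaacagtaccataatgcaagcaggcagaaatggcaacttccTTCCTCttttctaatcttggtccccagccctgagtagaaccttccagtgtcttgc
Fcgr3 promoter (chr1:171059404-171059523, minus strand): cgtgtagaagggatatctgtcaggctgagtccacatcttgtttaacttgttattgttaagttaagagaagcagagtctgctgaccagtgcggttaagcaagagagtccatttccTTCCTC
Fcgr4 promoter (chr1:171018800-171018919, plus strand): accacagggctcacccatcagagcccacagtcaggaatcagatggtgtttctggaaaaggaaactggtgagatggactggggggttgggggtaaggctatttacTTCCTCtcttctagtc

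The tables held 3308 and 3085 cells with 46953398 and 43137746 UMIs, no cell index was shared by both, and 2928 and 2725 cells passed the filters. Cells were assigned by UMI thresholds on genes outside the 7, in a fixed order with the first match taken, to 9 classes: macrophages (Vcam1 and C1qb), mature DCs (Ccr7 and Fscn1), cDC1s (Clec9a and Xcr1), pDCs (Siglech and Ccr9), B cells (Cd79a), T cells (Cd3e), NK cells (Ncr1), DCIR2 cDC2s (Clec4a4, which encodes DCIR2) and CLEC10A cDC2s (Clec10a and Cd209a). Together the gates held 4435 cells, and 1218 cells were outside all of them. Markers that the gates did not use were highest in their own class for 10 of 10 macrophage markers, 6 of 6 each for mature DCs, B, T and NK cells, and 5 of 6 for cDC1s. Only 3 of 6 pDC markers, 1 of 3 CLEC10A cDC2 markers and 0 of 3 DCIR2 cDC2 markers were highest in theirs, so these 3 names stand for the gates alone. The pDC gate held 13 and 19 cells, of which 9 and 12 also passed another gate, and 365 of 1012 cells of the DCIR2 cDC2 gate passed another gate. The macrophage gate held 293 cells in replicate 1 and 130 in replicate 2, and the sum of 4 erythroid markers in it was 3707 and 907 CPM (UMIs of a gene per 1000000 UMIs of the class). Free RNA was gauged with T cells, a class that should lack most of these receptors, and with 10 macrophage markers, whose median level outside the macrophage gate lay between 0.0729% and 1.25% of that inside. A UMI counts a captured transcript and not a fragment, so CPM were not divided by gene length, and levels are compared between classes and not between genes.

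Fcer1g, the gene of the common gamma chain, was the most broadly detected of the 7. Macrophages had 2971 CPM in replicate 1 and 3020.0 CPM in replicate 2 (2996 ± 34.4, SD, n = 2), NK cells 1442 and 1603 CPM, and CLEC10A cDC2s 1264 and 1267 CPM. The pDC gate followed with 1141 CPM in both samples, DCIR2 cDC2s with 918 and 887 CPM and mature DCs with 717 and 626 CPM. These 6 classes kept their order in both samples and no neighbours overlapped. Below them came a step of 5.52-fold to T cells, with 109 and 134 CPM, then cDC1s with 98.2 and 96.6 CPM and B cells with 89.5 and 38.3 CPM. The cDC1 level was thus 0.802 times that of T cells, the class taken as background, and below it in both samples. T cells give no firm background for Fcer1g, since 6 NK cell markers summed to 274 and 943 CPM in them. Single T cells held up to 10 of the 34 Fcer1g UMIs of replicate 1 and up to 23 of the 164 of replicate 2. After thinning every cell to 3000 UMIs, 137 of 684 cDC1s (95% exact interval 17.1% to 23.2%) and 100 of 570 (17.5%, 14.5 to 20.9) had a Fcer1g UMI, against 9.76% (2.72 to 23.1) and 14.5% (9.40 to 20.9) of T cells and 100% and 99.2% of macrophages. Without thinning the cDC1 shares were 49.9% and 50.5% at median depths of 19520.5 and 20952.5 UMIs, and the T cell shares 24.4% and 22.6% at 6145 and 6490 UMIs. Intervals cover counting error only.

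Fcgr1, the high-affinity IgG receptor, was found mostly in macrophages. It had 117 and 120.3 CPM there, from 648 and 295 UMIs, against 5.68 and 5.77 CPM in CLEC10A cDC2s, the next class, a ratio of 20.7. DCIR2 cDC2s had 9 UMIs in all, cDC1s 5, NK cells 3 and T cells 1, and mature DCs, B cells and the pDC gate had 0. Taking 3 UMIs over both samples as the limit that a count of 0 allows, macrophages were at least 142-fold higher than mature DCs, at least 78.9-fold higher than B cells and at least 18.4-fold higher than the pDC gate. Macrophages made up 13.6% and 6.78% of the UMIs of all kept cells and held 91.0% and 81.9% of the Fcgr1 UMIs.

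Fcgr3 and Fcgr4, the lower-affinity activating receptors, were also led by macrophages but reached further. Fcgr3 had 588 and 578 CPM in macrophages, 90.1 and 54.3 CPM in NK cells, where it is the only IgG receptor classically described, and 21.8 and 32.5 CPM in CLEC10A cDC2s. Its level in cDC1s, 3.77 and 3.64 CPM, overlapped with that in T cells, 3.22 and 4.07 CPM, and it was below them in DCIR2 cDC2s, at 2.21 and 2.00 CPM. Fcgr4 had 318 and 327 CPM in macrophages, 29.3 and 29.9 CPM in CLEC10A cDC2s, 12.4 and 12.2 CPM in DCIR2 cDC2s and 7.01 and 6.60 CPM in cDC1s. The cDC1 values overlapped with those of T cells, 9.66 and 1.63 CPM, from 3 and 2 UMIs. Neither gene had a UMI in the pDC gate, which allows up to 6.46 CPM. Levels in macrophages were 8.07-fold those of the next class for Fcgr3 and 10.9-fold for Fcgr4.

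Single macrophages often carried several activating receptors at once. In 70.3% (206 of 293) and 73.1% (95 of 130) of them, UMIs of Fcgr1, Fcgr3 and Fcgr4 were all present. Thinned to 3000 UMIs the shares fell to 13.7% and 16.9%, so the first figures rest on the depth of these cells. At the thinned depth, 92.8% and 88.5% of macrophages had at least 1 of the 3 genes, against 13.9% and 13.2% of CLEC10A cDC2s, 24.3% and 14.3% of NK cells, 3.36% and 2.63% of cDC1s, 3.06% and 3.52% of DCIR2 cDC2s, and 4.88% and 2.52% of T cells. The DCIR2 cDC2 and cDC1 shares thus lay near those of T cells. Of the 7 genes, Fcer1g was the one with a UMI in nearly every macrophage after thinning, followed by Fcgr3 with 82.3% and 76.9%, Fcgrt with 67.9% and 70.8%, Fcgr4 with 53.9% and 53.1% and Fcgr1 with 25.3% and 32.3%.

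Fcgr2b, the inhibitory receptor, was not led by macrophages. CLEC10A cDC2s had 202 and 241 CPM and B cells 228 and 191 CPM, and these values overlapped. cDC1s had 125 and 117 CPM, NK cells 74.2 and 81.5 CPM, and DCIR2 cDC2s 36.1 and 34.6 CPM. Mature DCs, with 7.57 and 10.5 CPM, and macrophages, with 3.98 and 11.4 CPM, were lowest, both under the T cell values of 22.5 and 17.9 CPM. In replicate 2, 1 T cell held 20 of the 22 Fcgr2b UMIs of its class, and 3 of 159 T cells had any. With cells that passed more than 1 gate left out, the level in the pDC gate, 42.6 and 90.3 CPM with all cells, had a mean of 9.21 CPM, and that of DCIR2 cDC2s 20.3 CPM. cDC1s held the most Fcgr2b UMIs of any class, 45.6% and 39.5% of the total, and made up 32.7% of all UMIs in both samples. CLEC10A cDC2s held 30.3% and 32.2% of the Fcgr2b UMIs and made up 13.5% and 12.9% of all UMIs.

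Fcgrt, the gene of FcRn, was highest in macrophages, at 431 and 404 CPM. cDC1s came next with 88.2 and 95.5 CPM, a step of 4.55-fold, and their values overlapped with those of the pDC gate, 48.0 and 93.9 CPM. Without cells that passed more than 1 gate, the mean was 13.8 CPM in the pDC gate and 93.2 CPM in cDC1s. CLEC10A cDC2s had 44.3 and 56.6 CPM. DCIR2 cDC2s, with 21.7 ± 3.18 CPM (SD, n = 2), overlapped with T cells at 22.5 and 25.2 CPM, and mature DCs, B cells and NK cells were lower on average.

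Fcer2a, the gene of CD23, was a B cell gene in these samples. B cells had 276 and 436 CPM, or a UMI in 50.8% (33 of 65) and 73.8% (127 of 172) of cells, and the next class, CLEC10A cDC2s, had 6.78 and 5.98 CPM, 55.8-fold lower. No UMI was found in T cells or NK cells, so that B cells were at least 183-fold higher than T cells and at least 79.7-fold higher than NK cells. B cells made up 1.57% and 3.75% of all UMIs and held 68.0% and 86.7% of the Fcer2a UMIs. The 37 UMIs in cDC1s lay in 4 and 7 cells, and without cells that passed more than 1 gate the cDC1 level was 0.167 CPM in place of 1.54 CPM.

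**Figure D1:**
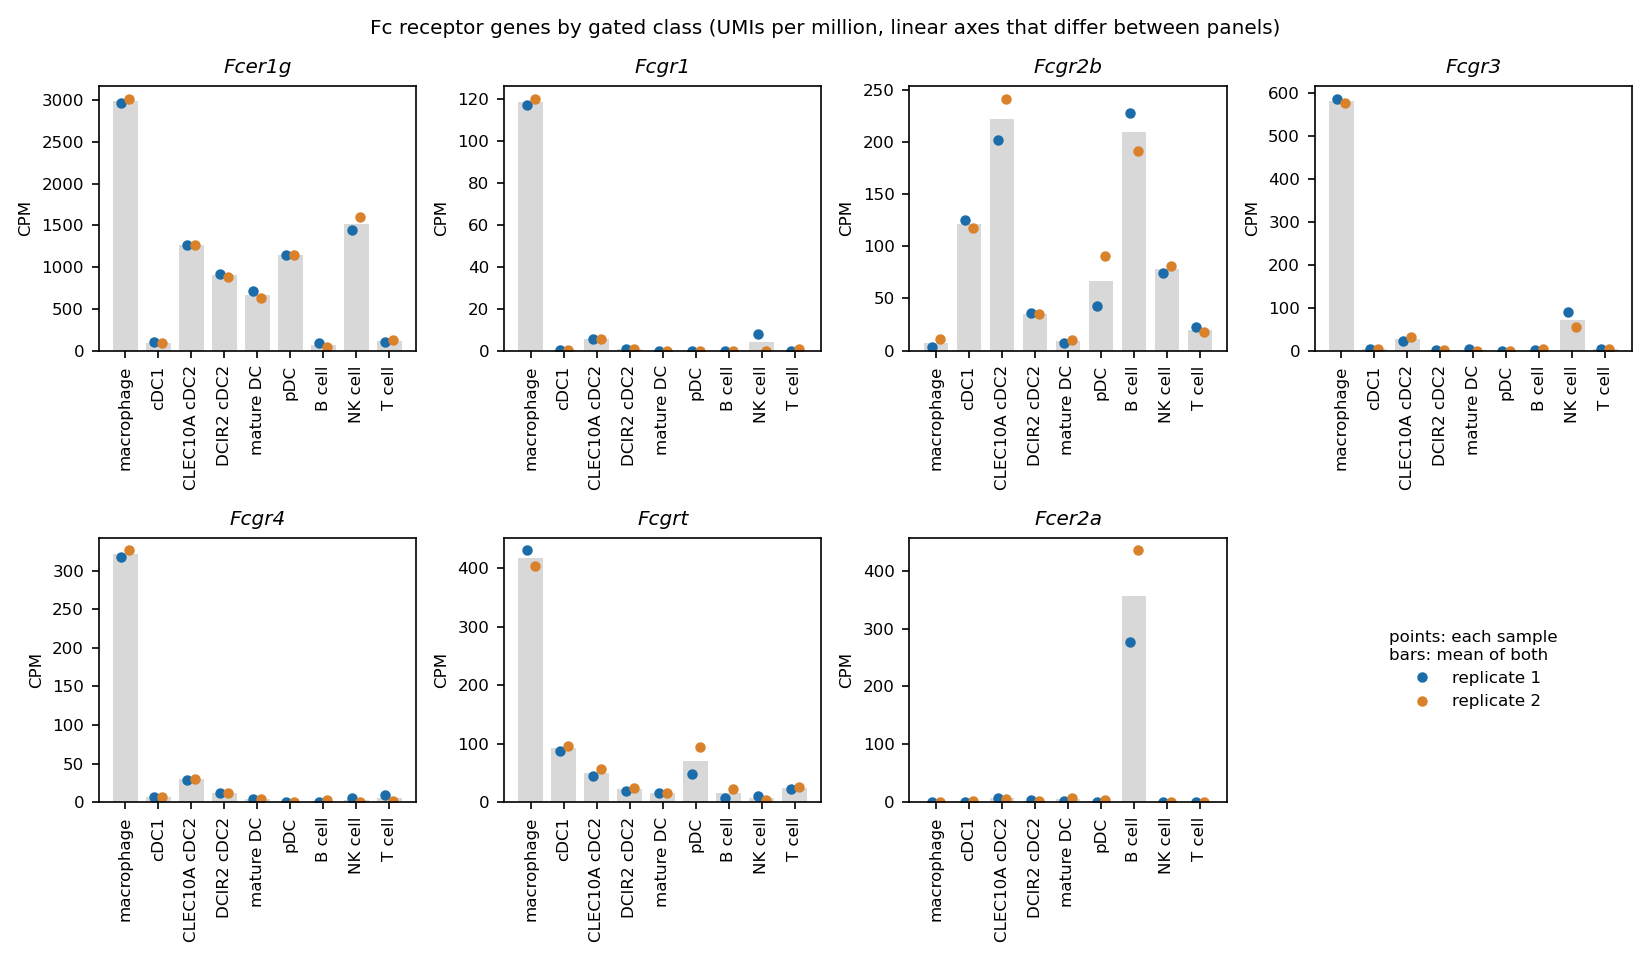
Level of each of the 7 genes (vertical axis, CPM, linear and different between panels) in the 9 gated classes, with a point for each sample and a bar for the mean of both. Macrophages lead in 5 panels, with 2971 and 3020.0 CPM for Fcer1g, whereas CLEC10A cDC2s and B cells lead for Fcgr2b and B cells alone for Fcer2a.

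The balance of inhibitory and activating IgG receptors was described as the share of Fcgr2b among the UMIs of Fcgr1, Fcgr2b, Fcgr3 and Fcgr4. Macrophages had 22 of 5678 UMIs (0.387%, 95% exact interval 0.243 to 0.586) and 28 of 2541 (interval 0.733 to 1.59). All conventional DC classes were far above them, with 91.9% (90.6 to 93.2) and 91.8% (90.3 to 93.1) in cDC1s, 78.0% in both samples of CLEC10A cDC2s (75.8 to 80.2 and 75.8 to 80.1) and 70.2% (65.2 to 74.8) and 70.0% (64.5 to 75.2) in DCIR2 cDC2s. These 3 classes did not overlap in their sample values, and those of the 2 samples differed by less than their intervals. B cells had 99.3% and 97.4% (94.7 to 98.9), from 146 and 266 UMIs. NK cells lay at 41.8% (29.8 to 54.5) and 60.0% (43.3 to 75.1), and mature DCs at 12 of 24 and 21 of 28 UMIs (intervals 29.1 to 70.9 and 55.1 to 89.3), which reach into those of other DCs. T cells had 63.6% and 73.3%, from 11 and 30 UMIs, but 1 cell held 5 of their 7 Fcgr2b UMIs in replicate 1 and 1 cell held 20 of 22 in replicate 2, so they give no firm background for this share.

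**Figure D2:**
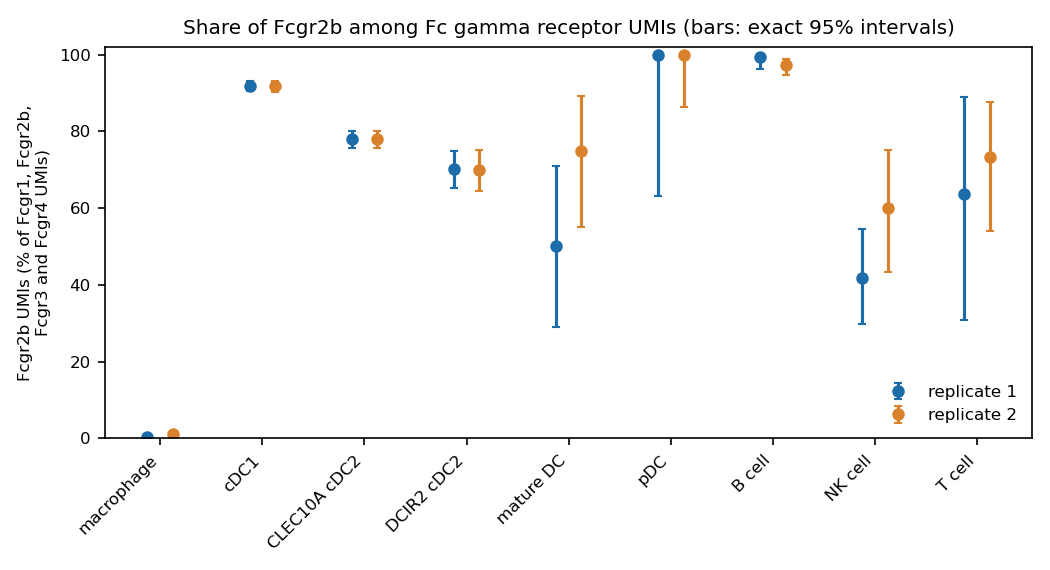
Share of Fcgr2b among the UMIs of the 4 IgG receptor genes (vertical axis, percent) in each gated class and sample, with exact 95% intervals that cover counting error only. Macrophages sit at 0.387% in replicate 1 and at 28 of 2541 UMIs in replicate 2, cDC1s at 91.9% and 91.8%, and the intervals are wide where a class holds few UMIs.

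Macrophages were then compared with the 4 conventional DC classes (cDC1s, both cDC2s and mature DCs) to ask how far the receptor repertoire of the 2 kinds of antigen-presenting cell differs. Sums of UMIs per class and sample were tested with edgeR's quasi-likelihood test, and the average log2 level of the DC classes was the reference. All 7 genes differed, 5 higher in macrophages and 2 lower, where 55.4% of the 11903 genes tested differed, 27.8% higher and 27.6% lower. Fcgr3 was 7.11 higher on the log2 scale (SE 0.16, adjusted p = 2.55e-17), Fcgr4 5.10 higher (SE 0.13, adjusted p = 1.24e-16), Fcgrt 3.61 higher (SE 0.13, adjusted p = 3.07e-15) and Fcer1g 2.57 higher (SE 0.12, adjusted p = 1.97e-13), each without overlap between samples of macrophages and DCs. Fcgr1 was called higher (adjusted p = 5.38e-15), and its fitted fold change is not given because mature DCs had 0 UMIs. Fcgr2b was lower in macrophages, at -2.99 on the log2 scale (SE 0.28, adjusted p = 1.23e-08). It was -2.27 without replicate 1 and -3.60 without replicate 2, and -2.16 without the filter on deviations, and the macrophage values overlapped with those of mature DCs. Fcer2a was called lower (adjusted p = 0.00305) from 1 UMI in macrophages, in replicate 1, and 160 in DCs, and no fold change is given. Without replicate 1 the log2 fold change of Fcgr3 was 8.43, in a fit where mature DCs had 0 UMIs.

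Within DCs, cDC1s were compared with both cDC2 classes. All 7 genes differed, 2 higher and 5 lower in cDC1s, against 36.0% of all genes, 18.5% higher and 17.5% lower. Fcer1g stood apart, with 98.2 and 96.6 CPM in cDC1s against 887 CPM or more in each cDC2 sample and a difference of -3.29 on the log2 scale (SE 0.18, adjusted p = 1.22e-11), the largest of the 7. Among the activating receptors, Fcgr1 was -2.96 (SE 0.56, adjusted p = 0.000422), Fcgr4 -1.32 (SE 0.19, adjusted p = 1.50e-05) and Fcgr3 -0.86 (SE 0.30, adjusted p = 0.0316). Fcgr1 rests on 5 UMIs in cDC1s, and it did not pass with the gate thresholds doubled (adjusted p = 0.230) or with cells that passed more than 1 gate left out (adjusted p = 0.0587). Fcgrt was 1.64 higher in cDC1s (SE 0.15, adjusted p = 2.91e-08), above both cDC2 classes in both samples.

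The average over both cDC2 classes hides a split in Fcgr2b and Fcgr3. Fcgr2b was 0.62 higher in cDC1s on the log2 scale (SE 0.16, adjusted p = 0.00533), yet its cDC1 level of 121 ± 5.24 CPM (SD, n = 2) lay between the 222 ± 28.2 CPM of CLEC10A cDC2s and the 35.4 ± 1.01 CPM of DCIR2 cDC2s. Fcgr3 likewise lay in cDC1s, at 3.70 CPM, between CLEC10A cDC2s, at 27.1 CPM, and DCIR2 cDC2s, at 2.11 CPM. Fcer2a, at -1.36 (SE 0.47, adjusted p = 0.0306), was -0.23 without replicate 1 and -3.23 without replicate 2, and it did not pass in DESeq2 (adjusted p = 0.0722). It was -3.51 without cells that passed more than 1 gate and -0.47 with the narrower cell filter (adjusted p = 0.486), whose median absolute deviation is unscaled.

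CLEC10A cDC2s had more of 5 receptors than DCIR2 cDC2s, and none was called lower, where 5.54% of all genes were called, 3.55% higher and 1.99% lower. Fcgr3, with 21.8 and 32.5 CPM against 2.21 and 2.00 CPM, was higher by 3.71 on the log2 scale (SE 0.33, adjusted p = 1.06e-06). Fcgr1 was 3.06 higher (SE 0.45, adjusted p = 0.000463), from 58 UMIs against 9, and Fcgr2b 2.70 higher (SE 0.21, adjusted p = 1.89e-07). Fcgr4, at 1.32 (SE 0.21, adjusted p = 0.000657), and Fcgrt, at 1.27 (SE 0.20, adjusted p = 0.000520), differed less. The samples of the 2 classes did not overlap for these 5, nor for Fcer1g and Fcer2a, and the share of all genes without overlap was not computed. Fcer1g, 0.54 higher (SE 0.17, adjusted p = 0.0687), and Fcer2a, 1.18 higher (SE 0.51, adjusted p = 0.244), did not pass the test. Without cells that passed more than 1 gate, of which the DCIR2 gate held 365, both passed, with log2 fold changes of 0.69 (adjusted p = 0.00204) and 2.62 (adjusted p = 0.00158). In the same cells Fcgr1 was 4.44 higher, Fcgr2b 3.53 and Fcgr4 2.35, and with doubled gate thresholds Fcgr3 was 4.54 higher, so these 4 differences depend in size on the gates.

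Markers of other cells were measured beside these differences. Lyz2 and Ccr2, markers fixed for CLEC10A cDC2s, were higher in another class in at least 1 sample. Against DCIR2 cDC2s, however, the sum of the 3 fixed markers (Mgl2, Ccr2 and Lyz2) was higher. It was 1324 and 1937 CPM in CLEC10A cDC2s and 101 and 52.0 CPM in DCIR2 cDC2s. The sum of 6 monocyte markers was 189.5 and 194 CPM in CLEC10A cDC2s and 62.1 and 81.5 CPM in DCIR2 cDC2s, with 0 of the 6 at 0 in either. The macrophage list reached a median of 0.312% and 1.25% of its macrophage level in CLEC10A cDC2s and 0.243% and 0.252% in DCIR2 cDC2s, and its highest marker reached 16.5% and 17.0% in the first and 15.0% and 17.0% in the second. The receptors' own values in CLEC10A cDC2s were 4.84% and 4.80% for Fcgr1, 3.71% and 5.62% for Fcgr3 and 9.22% and 9.16% for Fcgr4. The part of these markers in the difference was not tested.

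Mature DCs, which have taken up Ccr7 and the genes of migration, were compared with the 3 resident cDC classes. Of the 7 genes, 1 was higher and 4 were lower, against 33.2% of all genes, 18.2% higher and 15.0% lower. Fcgr2b, with 7.57 and 10.5 CPM, was lowest against the resident classes, at -3.35 on the log2 scale (SE 0.28, adjusted p = 1.32e-08). Fcgr4, at -1.83 (SE 0.36, adjusted p = 0.000642), and Fcgrt, at -1.48 (SE 0.24, adjusted p = 5.69e-05), were also below every resident sample. Fcgr3, at -1.75 (SE 0.62, adjusted p = 0.0362), rests on 6 UMIs, all in replicate 1, was -0.53 without replicate 2, and had no UMI without replicate 1. Its call was lost with doubled gates (-0.91, adjusted p = 0.351), without cells that passed more than 1 gate (-1.14, adjusted p = 0.227), with the narrower cell filter (adjusted p = 0.0798) and with only the compared classes in the fit (adjusted p = 0.0529). Fcgr4 was -1.23 without cells that passed more than 1 gate (adjusted p = 0.0339) and -2.46 with the narrower cell filter. Fcer1g was called higher, by 0.54 (SE 0.14, adjusted p = 0.00458), but only against the average that includes cDC1s: at 717 and 626 CPM it lay above cDC1s and below both cDC2 classes. Fcgr1, with 0 UMIs, and Fcer2a did not pass the test.

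The pDC gate had more Fcer1g than the average resident cDC, by 1.07 on the log2 scale (SE 0.15, adjusted p = 6.73e-05), with a level of 1141 CPM that lay between the 2 cDC2 classes. Fcgr4, with 0 of 464489 UMIs, was called lower (adjusted p = 0.0246), and against the limit of 3 UMIs the resident cDCs were at least 2.10-fold higher. This call was lost with doubled gates (adjusted p = 0.144), without cells that passed more than 1 gate (adjusted p = 0.272) and with the narrower cell filter (adjusted p = 0.0540). In this comparison 9.66% of all genes were called, 4.91% higher and 4.76% lower, and the other 5 genes did not pass. Fcgrt, at 0.51 (adjusted p = 0.362), was -1.59 (adjusted p = 0.260) without cells that passed more than 1 gate.

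B cells and NK cells were each compared with T cells. Against T cells, B cells were higher in Fcer2a (adjusted p = 7.46e-08) and in Fcgr2b, by 3.48 on the log2 scale (SE 0.34, adjusted p = 2.48e-07), and lower in Fcer1g, at -1.08 (SE 0.26, adjusted p = 0.00490), where 17.8% of all genes differed, 8.49% higher and 9.31% lower. The Fcer1g difference was -0.19 without replicate 2 and -1.82 without replicate 1, it did not pass with B and T cells alone in the fit (adjusted p = 0.104), and 1 cell of replicate 1 held 19 of its 57 UMIs. NK cells were higher than T cells in Fcgr3, by 4.17 (SE 0.61, adjusted p = 0.000141) or 4.76 without replicate 2, in Fcer1g, by 3.53 (SE 0.22, adjusted p = 3.78e-09), and in Fcgr2b, by 1.96 (SE 0.44, adjusted p = 0.00691), where 8.01% of all genes differed, 4.70% higher and 3.30% lower. The Fcgr2b difference did not pass with the narrower cell filter (adjusted p = 0.102). Fcgr2b in NK cells came from 4 of 38 and 9 of 36 cells, with 16 of the 28 UMIs of replicate 1 in 1 cell, and 4 and 3 NK cells also passed another gate. Without cells that passed more than 1 gate, Fcgr2b was 5.02 higher in B cells and 3.55 higher in NK cells, and Fcer1g -1.78 in B cells and 4.16 in NK cells.

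**Figure D3:**
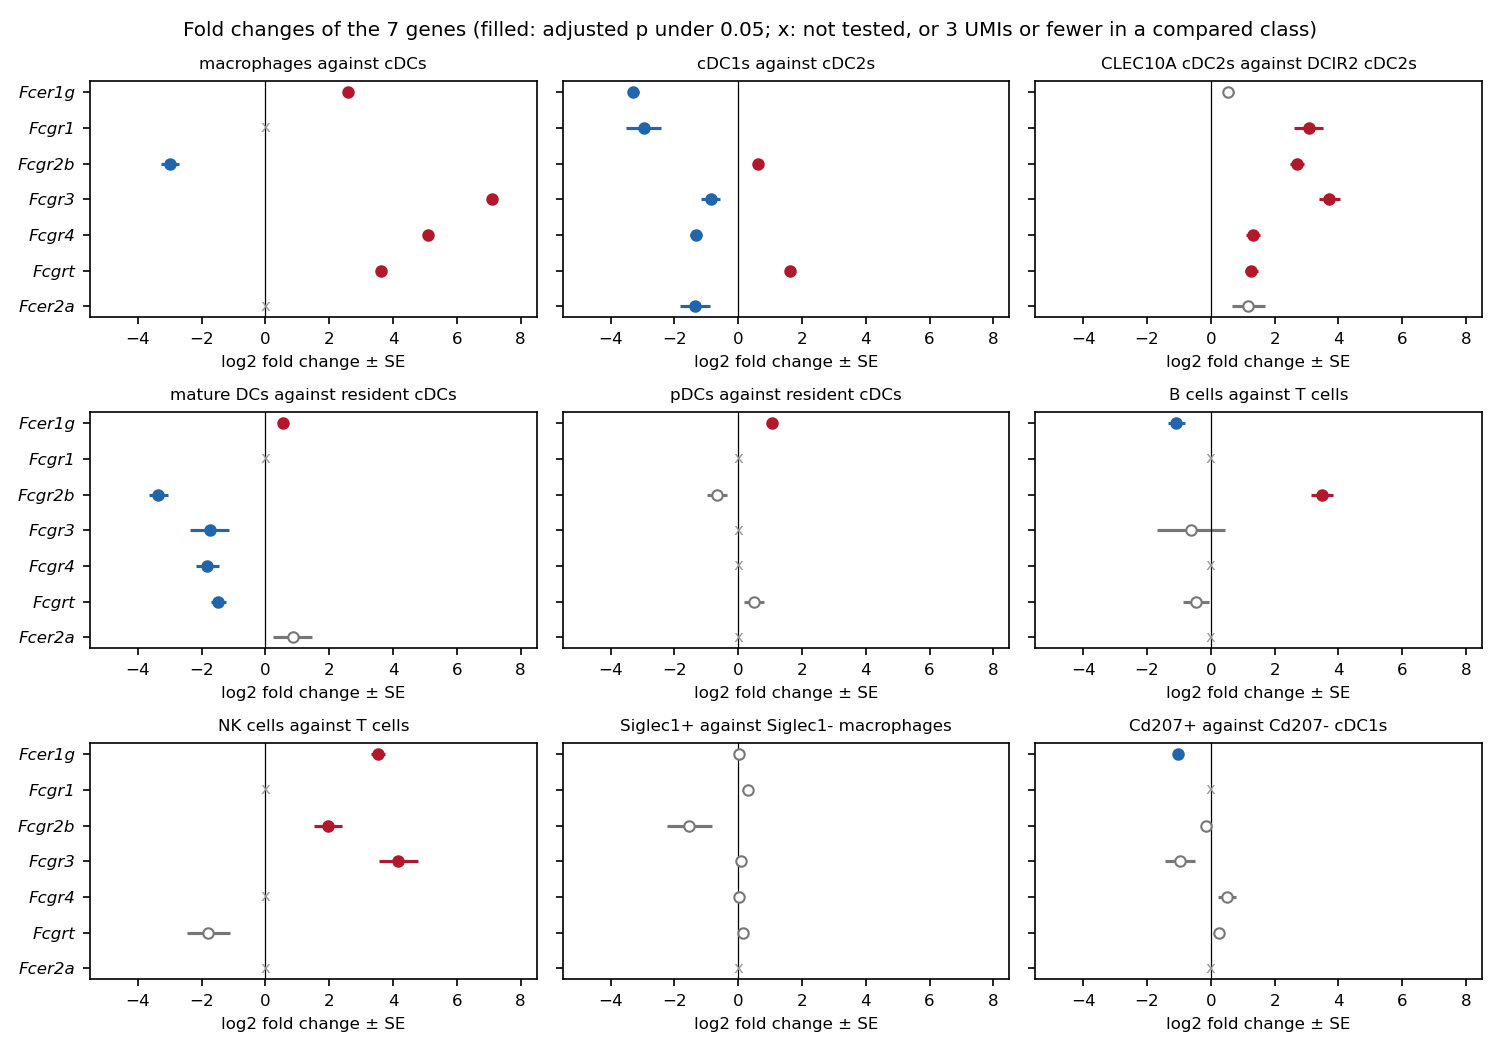
Log2 fold change of each gene (horizontal axis, with bars of 1 SE) in the 9 comparisons, first class over second, filled where the adjusted p was under 0.05. An x marks genes that were not tested, had 3 UMIs or fewer on one side, or had 0 UMIs in a reference class. The last holds for Fcgr1 in macrophages, which was called higher. Fcgr2b runs against the other IgG receptors in macrophages (-2.99) and is higher in B cells (3.48).

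Within the macrophage gate, cells with a UMI of Siglec1 (CD169), the marker by which the study defines marginal metallophilic macrophages, were compared with those without. The study's rule names Siglec1 expression without this gate, so the Siglec1+ cells here need not be the cells it selected. There were 112 and 56 Siglec1+ and 181 and 74 Siglec1- cells. Of 6 genes tested 0 were called by edgeR and 1 had an unadjusted p under 0.05, where 0.0209% of all genes were called, 2 of 9579, and 347 had an unadjusted p under 0.05. In DESeq2 1 gene was called, with 87 at an unadjusted p under 0.05. Fcgr1 had 131 and 138 CPM in Siglec1+ and 108 and 106 CPM in Siglec1- cells, without overlap, and a log2 difference of 0.32 (SE 0.14, unadjusted p = 0.0421, adjusted p = 0.999). Fcer1g, with 3089 and 3032 against 2887 and 3010.3 CPM, and Fcgrt, with 460 and 434 against 410.4 and 380 CPM, did not overlap either, at log2 differences of 0.04 (SE 0.08) and 0.17 (SE 0.11). Fcgr3 differed by 0.09 (SE 0.11) and Fcgr4 by 0.02 (SE 0.12), with overlapping values. Fcgr2b rested on 11 UMIs against 39 and differed by -1.53 (SE 0.71, unadjusted p = 0.0509, adjusted p = 0.999), with overlapping values. The share of all genes without overlap was not computed, so the lack of overlap in Fcgr1, Fcer1g and Fcgrt is only a description. The sample as a block raised the genes called from 2 to 50, with 0 of the 6 among them. Siglec1+ cells were deeper, with median UMIs of 20859 and 19019 against 17903 and 17986.5.

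Within the cDC1 gate, cells with a UMI of Cd207, the gene of Langerin, were compared with those without. The Langerin+ subset of cDC1s sits at the marginal zone and is the study's subject. The study did not use this gate, so the Cd207+ cells here need not be the cells it selected. Cd207+ cells were deeper, with median UMIs of 22445 and 23444 against 19023.5 and 20248. Fcer1g had 44.7 and 55.9 CPM in 116 and 113 Cd207+ cells and 110.4 and 108 CPM in 568 and 457 Cd207- cells. It was the 1 gene of 5 tested that was called, at -1.03 on the log2 scale (SE 0.12, adjusted p = 0.00648), where 0.869% of all genes were called, 0.435% in each direction. The direction was the same in both samples, at -0.87 without replicate 1 and -1.21 without replicate 2. The call was lost with the gate thresholds doubled (-0.53, adjusted p = 0.173), with cells that passed more than 1 gate left out (-0.61, adjusted p = 0.0884) and with the narrower cell filter (-0.88, adjusted p = 0.0594). Both levels lay under the 109 and 134 CPM of T cells, which give no firm background for Fcer1g, apart from that of Cd207- cells in replicate 1. In each sample 45 cDC1s passed another gate. Fcgrt, at 97.9 and 103 against 86.0 and 93.2 CPM, and Fcgr2b, at 112 and 97.6 against 128 and 123 CPM, did not overlap between the subsets, with log2 differences of 0.26 (SE 0.10, adjusted p = 0.328) and -0.16 (SE 0.10, adjusted p = 0.568) that did not pass. Fcgr4 was at 8.93 and 8.04 against 6.57 and 6.19 CPM and Fcgr3 at 2.44 and 1.53 against 4.07 and 4.24 CPM. Both were also without overlap and did not pass. All 5 genes tested were thus without overlap, and the share of all genes without overlap was not computed. Fcgr1 and Fcer2a had too few UMIs to be tested. The sample as a block raised the genes called from 96 to 652, and Fcer1g remained the 1 of the 5 called.

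**Figure D4:**
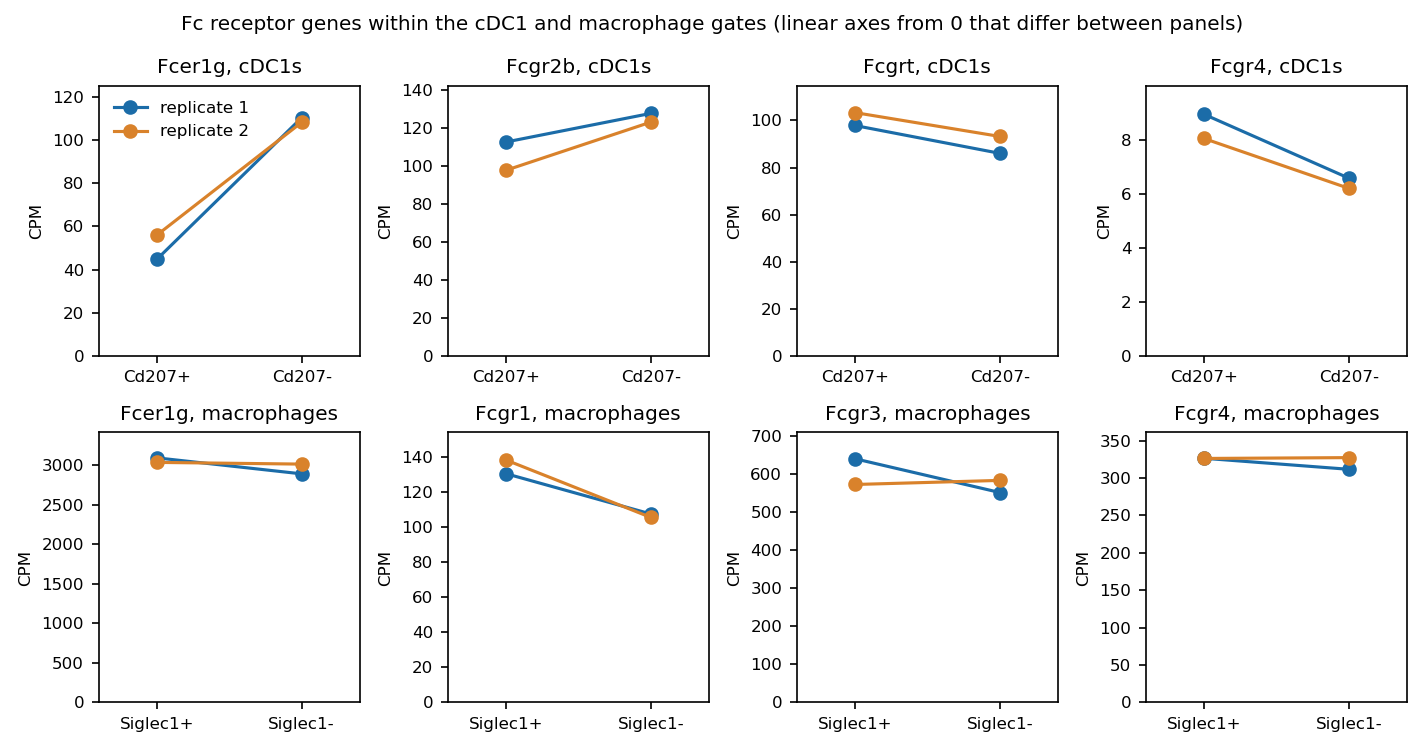
Levels (vertical axes, CPM, from 0 and different between panels) of 4 genes in Cd207+ and Cd207- cDC1s (top row) and 4 genes in Siglec1+ and Siglec1- macrophages (bottom row), with a line for each sample. Fcer1g is lower in Cd207+ cDC1s in both samples, at 44.7 and 55.9 CPM, and in the macrophage panels Fcgr1 differs most, by 0.32 on the log2 scale.

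Receptors that also signal through the gamma chain, and the kinases and phosphatases below it, were described from lists drawn up for the pathway. Of 8 other genes that use or accompany the gamma chain, 3 were tested, and 3 of 3 were higher in macrophages than in conventional DCs, beside 27.8% of all genes. Clec4n (Dectin-2, a lectin for fungal mannans) had 615 and 692 CPM in macrophages against a mean of at most 18.3 CPM in a DC class, a difference of 6.62 on the log2 scale (SE 0.13, adjusted p = 4.58e-18). Pira2, a paired Ig-like receptor, had 598 and 565 CPM there and a difference of 3.98 on the log2 scale (SE 0.12, adjusted p = 3.75e-16). Pira2 belongs to a family of near-identical genes, so its counts are uncertain. In cDC1s, 2 of the 3 were lower than in cDC2s, beside 17.5% of all genes, with Pira2 at 9.96 CPM (mean of both samples) in cDC1s. In mature DCs 2 of 3 were higher, beside 18.2% of all genes. Pira2 was among them (0.52, SE 0.19, adjusted p = 0.0375), but only against the average that includes cDC1s. It had 39.1 and 57.0 CPM in mature DCs, 81.7 and 75.1 CPM in DCIR2 cDC2s and 54.9 and 58.6 CPM in CLEC10A cDC2s. In B cells 1 was higher and 1 lower than in T cells, beside 8.49% and 9.31%. Between the cDC2 classes 0 of 3 were called by edgeR (2 at an unadjusted p under 0.05), in the pDC gate 0 (0 unadjusted), in NK cells 0 (1 unadjusted) and in either subset comparison 0 of 2 (0 unadjusted).

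Of 30 signalling genes, all tested, 13 were higher and 4 lower in macrophages than in conventional DCs, beside 27.8% and 27.6% of all genes. Both directions together lay near the 55.4% of all genes called, but more of the 30 were higher than lower. The median log2 fold change was 0.15 against -0.03 for all genes. Blnk, a Syk substrate and adaptor, was 4.70 higher (SE 0.18, adjusted p = 7.23e-15) and Lcp2 (SLP-76, another adaptor) 1.47 higher (SE 0.14, adjusted p = 1.83e-08). Lat2, an adaptor of the LAT family, was -4.87 (SE 0.26, adjusted p = 3.05e-12), with 1.08 and 2.85 CPM in macrophages. In cDC1s against cDC2s, 6 were higher and 12 lower, beside 18.5% and 17.5% of all genes, with a median of -0.20 against 0.00 for all genes. Fgr, a Src family kinase, had 71.1 and 65.0 CPM in cDC1s and a difference of -2.77 on the log2 scale (SE 0.21, adjusted p = 2.29e-09), and Ptpn6 (SHP-1, a phosphatase recruited by ITIMs) -1.50 (SE 0.11, adjusted p = 8.54e-10). Vav3 and Shc1 were higher in cDC1s, by 0.95 (SE 0.19) and 0.75 (SE 0.11).

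Between the cDC2 classes 2 of the 30 were higher in CLEC10A cDC2s, beside 3.55% of all genes, among them Prkcd, by 0.64 (SE 0.12, adjusted p = 0.00192). Mature DCs had 9 higher and 13 lower, beside 18.2% and 15.0% of all genes, with Dok1 1.84 and Pik3r1 1.25 higher and Lat2 -1.35 and Btk -1.24 against resident cDCs. In the pDC gate 3 were higher, led by Blnk, and 5 lower, among them Lcp2, beside 4.91% and 4.76% of all genes. In NK cells against T cells 10 were higher, led by Tyrobp (DAP12, an adaptor with an ITAM of its own) at 1399.7 and 1413 CPM and 3.94 on the log2 scale, and 2 were lower, Plcg1 and Lat, beside 4.70% and 3.30% of all genes. In B cells against T cells 11 were higher, led by Blnk and Syk, and 8 lower, led by Lat and Cd247, beside 8.49% and 9.31%. In Siglec1+ macrophages 0 of 26 tested and in Cd207+ cDC1s 0 of 27 tested were called by edgeR, with 0 and 4 at an unadjusted p under 0.05.

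Other receptors of immunoglobulins were measured as 11 genes, of which 7 were tested. Fcrla, an intracellular protein related to Fc receptors, was higher in cDC1s than in cDC2s, at 88.9 ± 1.44 CPM (SD, n = 2) against a mean of at most 10.6 CPM (log2 fold change 3.56, SE 0.17, adjusted p = 2.87e-12), and its level in B cells was 429 and 436 CPM. Fcrl1, a B cell receptor of the same family, was lower in cDC1s (-1.62, SE 0.20, adjusted p = 2.25e-06). B2m, the partner of FcRn and of MHC class I, was 0.39 higher in macrophages than in conventional DCs (SE 0.11, adjusted p = 0.00650). That holds only against the average of the DC classes. Mature DCs, with 6079 and 6545 CPM, lay above macrophages, with 4691 and 5315 CPM. B2m was 0.96 higher in mature than in resident DCs (SE 0.12, adjusted p = 1.74e-06), whereas Fcgrt was lower in mature DCs. Against T cells, B cells were higher in 4 of the 7, beside 8.49% of all genes, led by Fcmr, the IgM receptor, with 516 and 643 CPM and no UMI in T cells, and by Fcrl5. Mature DCs had 5 higher and 2 lower, beside 18.2% and 15.0% of all genes, and the pDC gate 1 higher, beside 4.91%. By edgeR 0 of 7 were called between the cDC2 classes (1 at an unadjusted p under 0.05) and in NK cells (0 unadjusted), 0 of 4 in Siglec1+ macrophages (0 unadjusted) and 0 of 4 in Cd207+ cDC1s (3 unadjusted).

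The genes whose levels over the 9 classes were most like those of each receptor were ranked by the lower of 2 Pearson correlations, 1 per sample, among 6020 genes that reached 50 CPM. The 9 points share libraries and differ in depth, and the values are descriptions. They were computed on log2(CPM + 10), and with a pseudocount of 1, 18 of the 21 genes named by the rule were among the 10 closest, not so Axl, Cd302 and Clec4n. For Fcgr1 they were Hcar2 (0.99), Axl (0.99) and Glis3 (0.99), for Fcgr3 C3 (0.97) and Grina (0.95), and for Fcgr4 Cd302 (0.96), Hpgd (0.96) and Clec4n (0.96). For Fcgrt they were Ctnnd1 (0.94), Grn (0.91) and Atp8a1 (0.90), and for Fcer1g Gpx4 (0.93), Nod1 (0.91) and Dock4 (0.90). Fcgr2b had the least close neighbours, Slc4a7 (0.82), Lat2 (0.77) and Cpsf2 (0.75). For Fcer2a they were Gm43388 and Il5ra, each at 0.99.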

How the data were processed

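The authors counted UMIs per cell and gene with the BD Rhapsody WTA Analysis Pipeline 1.12.1 against GRCm38 plus PhiX (annotation GENCODE vM19), counting intronic reads too, and deposited these counts without normalization. The submitters' processing notes also name R 4.2.3 and Seurat 4.3.0.1. Other mice tagged in the same run were not used here. Members, gene lists and tests were chosen with earlier results of these data known.

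Cells had at least 200 genes and lay within the mean ± 3 median absolute deviations (scaled by 1.4826) of the percentage of mitochondrial UMIs, genes and UMIs. Gates, in order, were Vcam1 at 20 or more UMIs with C1qb at 5, Ccr7 at 2 with Fscn1 at 1, Clec9a at 2 with Xcr1 at 1, Siglech at 3 with Ccr9 at 1, Cd79a at 3, Cd3e at 2, Ncr1 at 1, Clec4a4 at 2, and Clec10a plus Cd209a at 2. No doublets were removed. Scrublet, in scanpy 1.11.5, called 34 and 26 cells.

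UMIs were summed per sample and class (18 sums) and tested in 1 fit with edgeR 4.0.16 (TMM factors, genes kept by filterByExpr, quasi-likelihood test). P-values were adjusted after Benjamini and Hochberg across the genes tested, with a threshold of 0.05 and the gate genes left out. Subsets were fitted apart, without Siglec1 or Cd207. The SE is the log2 fold change over the square root of F. Statements on overlap between samples are descriptions, and the share of all genes without overlap was not computed. R was 4.3.3, DESeq2 1.42.0, Python 3.11.15, numpy 2.4.6, pandas 2.3.3, scipy 1.17.1 and matplotlib 3.10.9. Replicates differed beyond sampling noise (chi-square per degree of freedom 2.49 to 6.68). Classes of a sample were captured together, so the sample pairs them, and deviations from class means correlated at a median of 0.0572 (-0.0227 to 0.368) over 36 class pairs. The test was tried on simulated counts. Genes named were the 7 members, per list and comparison up to 2 called genes in each direction with the largest fold change and 50 CPM or more in the higher class, and the 3 genes most like each member. A few genes that this rule names are not reported here. Alternatives were other filters, gates, normalizations, DESeq2, the sample as a block, each comparison's classes fitted alone and each sample left out.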

Additional observations from a re-analysis of the deposited data

How the results depend on the processing

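With 60 member tests, 639 fold changes were recomputed under 11 alternatives. On the same side of the threshold and with no turn of direction stayed 602, 17 called ones no longer passed, 11 others newly did, and 9 changed direction, 0 of them called before or after. With cells of more than 1 gate left out these were Fcgrt in the pDC gate (-1.59) and Fcgr4 in B cells (0.11) and NK cells (1.16). With the unscaled median absolute deviation they were Fcer2a in mature DCs (-0.00046) and Fcer1g (-0.0122), Fcgr4 (-0.13) and Fcgrt (-0.0149) in Siglec1+ macrophages. With doubled gates they were Fcgr4 in Siglec1+ macrophages (-0.0673) and Fcgr3 in Cd207+ cDC1s (0.13). In the pDC gate, the count of genes called fell from 2 to 1 with the unscaled median absolute deviation, with doubled gates and with cells of more than 1 gate left out, each time losing Fcgr4. In Cd207+ cDC1s it fell from 1 to 0 under the same 3 alternatives. Fewer cells enter these alternatives, and the cause was not tested. Counts of the other 7 comparisons stayed within 1.5 times. Values without replicate 1 or 2 rest on 1 sample per class and carry no test, and 0 called genes changed direction. The sample as a replicate block changed no member's call, with 7 genes called in macrophages, 7 in cDC1s, 5 in CLEC10A cDC2s, 5 in mature DCs, 2 in the pDC gate, 3 each in B and NK cells, 0 in Siglec1+ macrophages and 1 in Cd207+ cDC1s. Over all genes, the block raised calls from 96 to 652 in Cd207+ cDC1s and from 2 to 50 in Siglec1+ macrophages. Without a filter on low counts 443 and 74 genes were called there, with doubled gates 59 in Cd207+ cDC1s, and with cells of more than 1 gate left out 47 and 0 (338 at an unadjusted p under 0.05). In Siglec1+ macrophages 10 were called without the filter on deviations, 1 in DESeq2 and 0 with total UMIs (336 unadjusted). With only the compared classes in the fit, 1773 genes were called in place of 660 between the cDC2 classes, 1241 in place of 2119 in B cells and 476 in place of 953 in NK cells. Scaling to total UMIs alone shifted the median of all genes by -0.16 in cDC1s against cDC2s and to 0.02 from -0.16 in the pDC gate. It turned the split of calls in cDC1s from 2200 higher and 2082 lower to 1537 and 2928, in the pDC gate from 584 and 566 to 793 and 339 (1011 and 535 in DESeq2, 263 and 559 with cells of more than 1 gate left out, 368 and 573 with doubled gates, 503 and 1167 without a filter on low counts), and in Cd207+ cDC1s from 48 and 48 to 26 and 75, with every member's call as before. The class with the highest level was the same under all 5 other cell filters and gates for 6 of 7 genes, and for Fcgr2b it was B cells with the unscaled deviation.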

Other observations

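Cells outside every gate included small groups with UMIs of several IgG receptors, and 2 of them, chosen after their values were seen, are given first. Cells with UMIs of Treml4 and Ace, genes of non-classical monocytes, numbered 19 and 26. They had 2478 and 2529 CPM of Fcer1g, 259 and 463 CPM of Fcgr4 and 393 and 227 CPM of Fcgr2b, and held 50.5% and 63.2% of the Fcgr4 UMIs outside the gates. Cells with Ly6c2 and F13a1, genes of classical monocytes, numbered 5 and 12. They had 549 and 320.0 CPM of Fcgr3, 103 and 81.9 CPM of Fcgr1 and 446 and 394 CPM of Fcgr2b, and 0 UMIs of Fcgr4 among 58288 and 134355 UMIs, which over both samples allows up to 15.6 CPM. Both groups thus carried Fcgr2b above its level in macrophages, at 3.98 and 11.4 CPM, and Fcgr4 was found in the first and not in the second. Cells with at least 20 UMIs of S100a8 and S100a9 together numbered 2 and 5. They had 127 and 492 CPM of Fcgr3 and 63.5 and 422 CPM of Fcgr4, from 2 and 14 and from 1 and 12 UMIs. In replicate 2, 1 cell with Fcer1a and Cpa3 had 8 UMIs of Fcgr3 and 3 of Fcgr2b. With so few cells per sample no test was run.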
